A study of Rattus norvegicus with 8 samples.

Results

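Granins and the enzymes that cut prohormones were measured in cultures of rat dorsal root ganglia, which hold the cell bodies of sensory neurons. The rule takes genes by name and uses no measured value, although earlier results of these data were known when it was set: 6 granins and granin-like proteins (Vgf, Scg2, Scg3, Scg5, Chga and Chgb) and 3 processing enzymes (Pcsk1, Pcsk2 and Cpe). These 9 genes had 1 probe each among the 30367 probes of the array, which carried 15154 gene symbols in all. Dissociated ganglia of Wistar rats aged 0 to 5 days, cells of both sexes pooled, were kept without serum and with 5-fluoro-2′-deoxyuridine and uridine in the medium of every group. For 5 days a human protein was then present at 100 ng/ml. It was the single mutant P61S on 3 arrays, the double mutant P61S/R100E on 3 arrays and the wild type form on 2 arrays, and cultures that lacked it were not analysed here. Whether the replicates of a group were separate cultures or animals is not given in the labels, so p-values measure only the spread between these samples, which may be technical.

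Neurons and endocrine cells store peptides in dense-core vesicles and release them when stimulated. Granins are acidic proteins that gather in the trans-Golgi network, help to form and load these vesicles, and are themselves cut into active peptides. Prohormone convertases cut precursors after pairs of basic residues, and carboxypeptidase E then trims those residues from the new ends. Sensory neurons use the same route to make peptides such as substance P, CGRP and galanin.

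The promoters of Vgf and Scg2 are shown because these genes were lower in every P61S/R100E array than in every wild type array, and because both carry the cyclic AMP response element TGACGTCA. In either direction, these 2 groups did not overlap for 15.1% of all tested probes, and both genes had adjusted p = 0.746 in limma. Each sequence, from RefSeq on build GRCr8, is the 250 bases before the annotated gene start, read 5′ to 3′ on the gene's strand, with the element in capitals. Vgf lies on the minus strand of chromosome 12 and the stretch is chr12:25277021-25277270. Scg2 lies on the minus strand of chromosome 9 and the stretch is chr9:88256867-88257116.
Vgf: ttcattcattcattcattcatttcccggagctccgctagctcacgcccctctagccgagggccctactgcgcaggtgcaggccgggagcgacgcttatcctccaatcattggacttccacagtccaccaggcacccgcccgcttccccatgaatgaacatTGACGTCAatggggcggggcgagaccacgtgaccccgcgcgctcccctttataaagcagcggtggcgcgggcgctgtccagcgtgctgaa
Scg2: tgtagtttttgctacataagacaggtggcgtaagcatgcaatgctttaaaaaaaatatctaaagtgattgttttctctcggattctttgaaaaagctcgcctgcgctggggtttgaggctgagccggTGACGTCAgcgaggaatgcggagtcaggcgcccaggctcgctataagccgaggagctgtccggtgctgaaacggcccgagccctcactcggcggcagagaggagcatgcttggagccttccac
The element begins 90 bases before the gene start in Vgf and 123 bases before it in Scg2. The promoter table held 7 of the 9 genes, all but Chga and Pcsk1. Among windows of 250 bases before to 50 after a start, TGACGTCA, which reads the same on both strands, occurred in 2 of the 7 and in 612 of 33469 promoters of the table (1.83%). The core TGACG, searched on both strands and contained in the full element, occurred in 6 of the 7 and in 7097 promoters (21.2%). A match is a description of the sequence only.

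The arrays were of 1 colour, and 78.7% to 88.8% of their spots were well above background, with 0 saturated. The 75th percentile signal, to which every log2 value here is relative, was lowest on wild type replicate 2 (3267.1) and highest on P61S/R100E replicate 2 (5269). The 11 pan-neuronal markers on the array were detected in all cultures, with a mean of 2.65 to 2.86 log2 units by array, highest on wild type replicate 2. Leaving that array out gave 1 probe that passed the test between P61S/R100E and wild type, and leaving out wild type replicate 1 gave 1244, against 0 with both. Each array had its own slide position, and the wild type arrays alone filled column 4, so slide column and protein cannot be told apart in comparisons with wild type. All 144 spots of the 9 genes were well above background. Spots of 1 probe on 1 array differed with a median SD of 0.043 log2 units, and arrays of 1 group differed with a median SD of 0.109, and spread between arrays exceeded that between spots in all 9 genes, leaving out 1 pair with a spot marked as an outlier.

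The granin and processing genes were detected on every array, and their group means lay within 0.29 log2 units of each other for every gene. Between P61S/R100E and P61S the fitted log2 differences ran from -0.29 (Scg3) to 0.14 (Pcsk2), with a median of -0.05 over the 9 genes and -0.02 over all 23585 tested probes. Between P61S/R100E and wild type they ran from -0.28 (Vgf and Scg2) to 0.11 (Pcsk2), with medians of -0.08 and -0.06. Between P61S and wild type they ran from -0.14 (Vgf) to 0.21 (Scg3), and both medians were -0.04. None of the 9 genes passed limma's test at a Benjamini-Hochberg adjusted p of 0.05 over all probes in any comparison, where 0.0% of all probes passed in each of the 3.

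**Figure D1:**
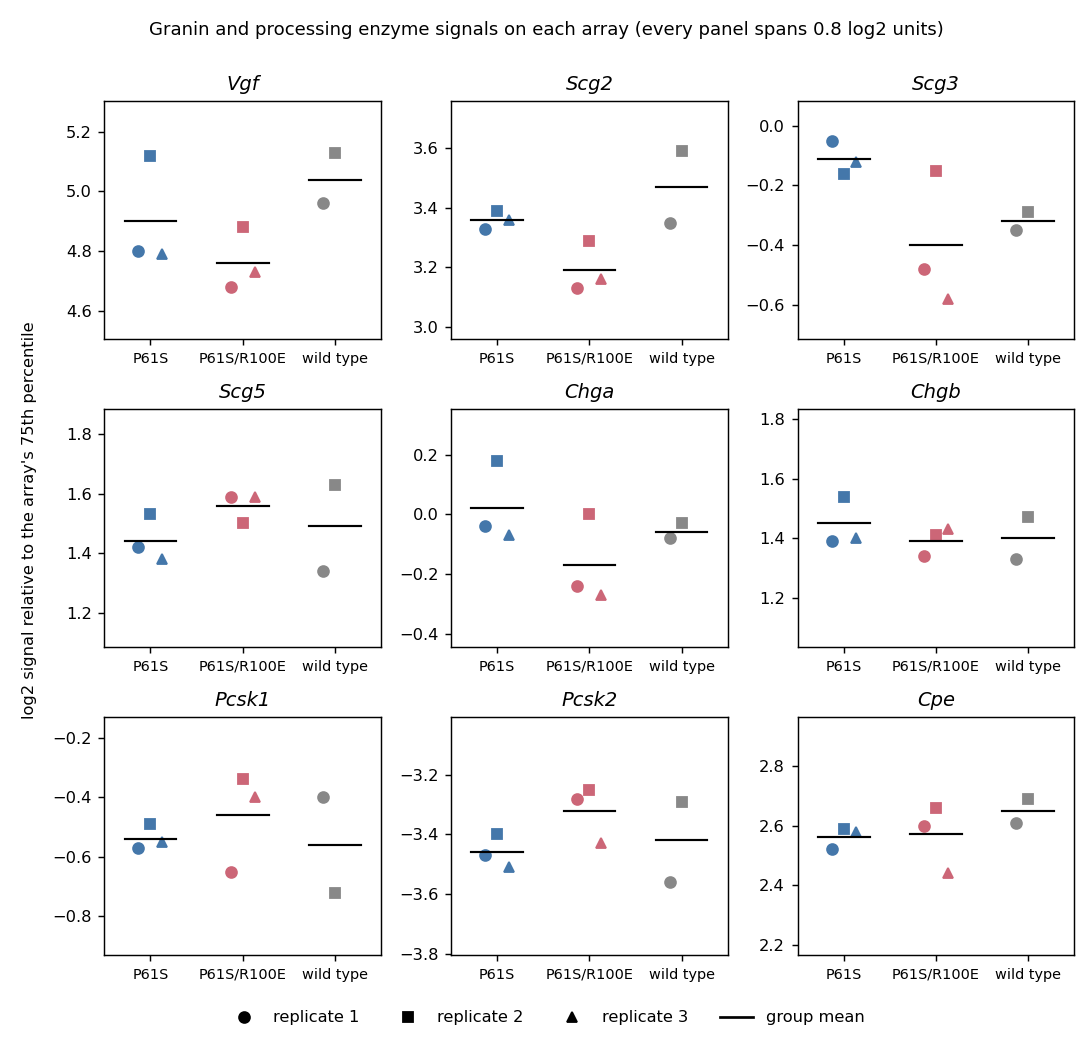
Log2 signal relative to the 75th percentile of the array (vertical axis) for each of the 9 genes by protein form (horizontal axis). Points are single arrays, shapes mark replicate numbers, lines are group means, and every panel spans the same width. Vgf and Scg2 of the P61S/R100E arrays all lie under the wild type arrays, while in most other panels the groups overlap. Between P61S/R100E and wild type 15.1% of all tested probes did not overlap.

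Vgf encodes a secreted neuronal precursor of several bioactive peptides and is induced by growth factors (NM_030997). Its level was 4.8, 5.12 and 4.79 log2 units in the P61S arrays, 4.68, 4.88 and 4.73 in the P61S/R100E arrays, and 4.96 and 5.13 in the wild type arrays. P61S replicate 2 reached the wild type range, the other P61S arrays lay among the P61S/R100E arrays, and every P61S/R100E array was below both wild type arrays. Group means were 4.9 ± 0.19 (SD, n = 3) for P61S, 4.76 ± 0.11 (SD, n = 3) for P61S/R100E and 5.04 ± 0.12 (SD, n = 2) for wild type. The difference of P61S/R100E from wild type was -0.28 (SE 0.135, 95% bounds -0.6 to 0.04), a 1.22-fold lower level, with adjusted p = 0.746 in limma. It was -0.2 without wild type replicate 2 (adjusted p = 1.0) and -0.37 without wild type replicate 1 (adjusted p = 0.233). Neighbours in the order wild type, P61S, P61S/R100E did not differ beyond their spread: P61S/R100E minus P61S was -0.14 (SE 0.12, bounds -0.43 to 0.15) and P61S minus wild type was -0.14 (SE 0.135, bounds -0.46 to 0.18).

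Scg2 encodes secretogranin II, the precursor of secretoneurin (NM_022669). It measured 3.33, 3.39 and 3.36 log2 units with P61S, 3.13, 3.29 and 3.16 with P61S/R100E, and 3.35 and 3.59 with wild type. All 3 P61S/R100E arrays were lower than all 5 others, and the single high array was wild type replicate 2. The means were 3.36 ± 0.03 (SD, n = 3), 3.19 ± 0.09 (SD, n = 3) and 3.47 ± 0.17 (SD, n = 2). P61S/R100E minus wild type was -0.28 (SE 0.105, bounds -0.53 to -0.04), 1.22-fold lower, with adjusted p = 0.746 in limma and an unadjusted p under 0.05. P61S/R100E minus P61S was -0.17 (SE 0.0937, bounds -0.39 to 0.05; adjusted p = 0.999 in limma). P61S minus wild type was -0.11 (SE 0.105), within the spread. Wild type replicate 2 weighed on the size of the first difference, which was -0.16 (adjusted p = 1.0 in limma) without it and -0.4 (adjusted p = 0.0809) without wild type replicate 1.

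Scg3 encodes secretogranin III, which binds chromogranin A and cholesterol-rich membrane and helps to sort cargo into vesicles (NM_053856). Its values were -0.05, -0.16 and -0.12 with P61S, -0.48, -0.15 and -0.58 with P61S/R100E, and -0.35 and -0.29 with wild type. P61S/R100E replicates 1 and 3 were the lowest arrays, whereas replicate 2 sat with the P61S arrays, so these groups overlapped. The means were -0.11 ± 0.06 (SD, n = 3), -0.4 ± 0.23 (SD, n = 3) and -0.32 ± 0.04 (SD, n = 2). P61S/R100E minus P61S was -0.29 (SE 0.123, bounds -0.59 to -0.001), 1.23-fold lower, with adjusted p = 0.999 in limma and an unadjusted p just under 0.05. Without P61S/R100E replicate 2 this was -0.42 (adjusted p = 0.805 in limma), and without replicate 3 of that group it was -0.2 (adjusted p = 0.957). Every P61S array exceeded both wild type arrays, by a mean of 0.21 (SE 0.138, bounds -0.12 to 0.54; adjusted p = 0.999 in limma).

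Chga and Chgb encode chromogranins A and B, the classical granins of endocrine cells and neurons (NM_021655 and NM_012526). Chga measured -0.04, 0.18 and -0.07 with P61S, -0.24, 0.0 and -0.27 with P61S/R100E, and -0.08 and -0.03 with wild type. Replicate 2 was highest in both mutant groups, and the wild type arrays lay between the group means of 0.02 ± 0.14 (SD, n = 3) and -0.17 ± 0.15 (SD, n = 3). P61S/R100E minus P61S was -0.19 for Chga (SE 0.112, bounds -0.46 to 0.07; adjusted p = 0.999 in limma). Chgb measured 1.39, 1.54 and 1.4 with P61S, 1.34, 1.41 and 1.43 with P61S/R100E, and 1.33 and 1.47 with wild type. The 8 Chgb values spanned 0.21 log2 units, the narrowest range among the 9 genes, and the 3 groups overlapped. Its P61S/R100E minus P61S difference was -0.05 (SE 0.0846, bounds -0.25 to 0.15).

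Scg5 encodes 7B2, the chaperone that prohormone convertase 2 needs to mature (NM_013175). It measured 1.42, 1.53 and 1.38 with P61S, 1.59, 1.5 and 1.59 with P61S/R100E, and 1.34 and 1.63 with wild type. The wild type pair held both the lowest and the highest value, so the wild type overlapped both mutants. Scg5 was the one granin with a higher mean in P61S/R100E (1.56 ± 0.05, SD, n = 3) than in P61S (1.44 ± 0.08, SD, n = 3). That difference was 0.12 (SE 0.101, bounds -0.12 to 0.36; adjusted p = 0.999 in limma).

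The processing enzymes differed less between groups than their bounds. Pcsk1 encodes prohormone convertase 1/3, which makes the early cuts in many precursors (NM_017091). It measured -0.57, -0.49 and -0.55 with P61S, -0.65, -0.34 and -0.4 with P61S/R100E, and -0.4 and -0.72 with wild type. The P61S arrays lay close together inside the range of each other group. Pcsk1 differed by 0.07 between P61S/R100E and P61S (SE 0.122, bounds -0.22 to 0.36) and by 0.1 between P61S/R100E and wild type (SE 0.136, bounds -0.23 to 0.42).

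Pcsk2 encodes prohormone convertase 2, which acts later in the vesicle and depends on 7B2 (NM_012746). It measured -3.47, -3.4 and -3.51 with P61S, -3.28, -3.25 and -3.43 with P61S/R100E, and -3.56 and -3.29 with wild type. The wild type pair again spanned nearly the whole range. P61S/R100E minus P61S was 0.14 (SE 0.101, bounds -0.1 to 0.38; adjusted p = 0.999 in limma). The low value of wild type replicate 1 rested on 1 spot, since its second Pcsk2 spot was marked as an outlier by the scanner software and left out. The log2 signals of the retained and the marked spot were 8.74 and 9.57, and this was the one such mark among the 144 spots. In the deposited values, taken relative to their own 75th percentile over 22018 probes, Pcsk2 on that array differed from the scanner value by -0.03. On the other 7 arrays it differed by -0.47 to -0.45, a shift of scale shared by the other genes of the set. On wild type replicate 1 those genes differed by -0.45, so Pcsk2 alone stood higher there. Before that scaling, the median difference over all deposited probes was 0.0 on every array. With the deposited values the sign of P61S/R100E minus wild type turned, from 0.11 to -0.1, and P61S minus wild type was -0.24 (adjusted p = 0.997 in limma).

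Cpe encodes carboxypeptidase E (NM_013128). It measured 2.52, 2.59 and 2.58 with P61S, 2.6, 2.66 and 2.44 with P61S/R100E, and 2.61 and 2.69 with wild type. Both wild type arrays were above all P61S arrays, by a mean of 0.09, while the P61S/R100E arrays spread over the full range below the top value. P61S minus wild type was -0.09 (SE 0.0978, bounds -0.32 to 0.14; adjusted p = 0.999 in limma), and P61S/R100E minus P61S was 0.01 (SE 0.0875, bounds -0.2 to 0.21).

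**Figure D2:**
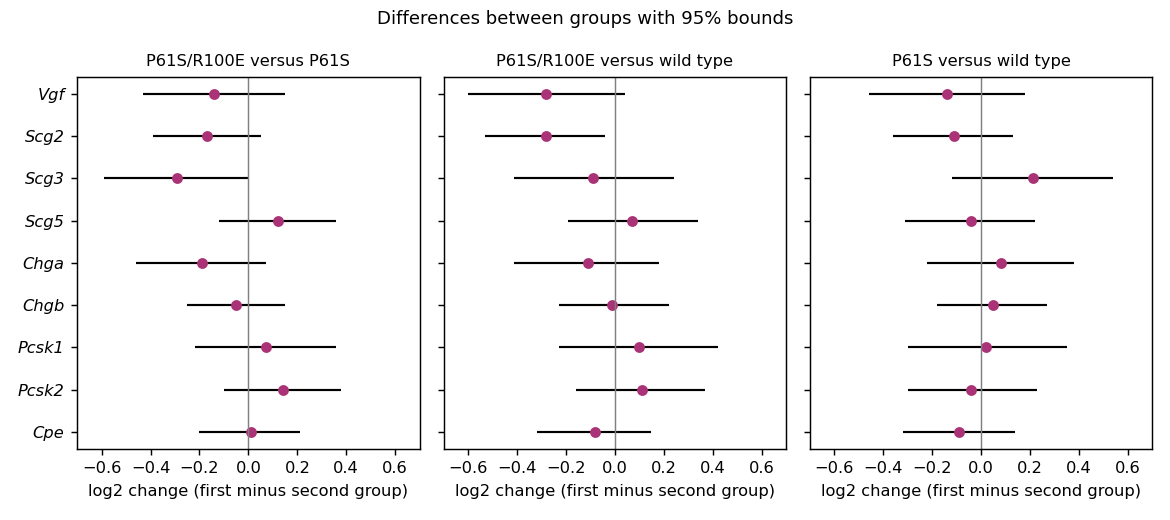
Fitted log2 differences (points) with 95% bounds (lines) for the 9 genes in the 3 comparisons; the horizontal axis is the first group minus the second. The bounds leave out 0 for Scg3 between P61S/R100E and P61S and for Scg2 between P61S/R100E and wild type, before any adjustment for the number of probes.

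Counted over the set, the comparison of P61S/R100E with P61S had 1 of 9 genes at an unadjusted p under 0.05 (Scg3), where 4.01% of all tested probes were. It had 1 of 9 with groups that did not overlap (Scg2, lower), where 14.0% of all probes did not. P61S/R100E against wild type had 1 of 9 at that p (Scg2) beside 5.04% of all probes, and 2 of 9 without overlap (Vgf and Scg2, both lower) beside 15.1%. P61S against wild type had 0 of 9 beside 2.07%, and 2 of 9 without overlap (Scg3 higher, Cpe lower) beside 16.6%. With counts of 0, 1 or 2 genes, these shares cannot be set apart from those of all probes. The 6 granins had median differences of -0.15, -0.1 and 0.001 in these comparisons, and the 3 enzymes of 0.07, 0.1 and -0.04. Of the 9 genes, 5, 6 and 5 were below 0, against 57.0%, 62.4% and 60.1% of all probes. The farthest 95% bound of any of the 9 genes was a 1.5-fold, 1.52-fold and 1.45-fold difference, so larger changes lay outside the bounds of each gene taken singly. P61S/R100E is in the first comparison as well as the second, so the low values of its arrays enter both.

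The P61S/R100E and P61S arrays shared only slide column 2, and the part of slide position in the granin values was not tested. P61S/R100E replicates 1 and 3 lay in column 3. Replicate 2 of that group shared column 2 with P61S replicate 2, while the other P61S arrays lay in column 1. In column 2, with 1 array of each group and no test, P61S/R100E minus P61S was -0.24 for Vgf, -0.11 for Scg2, -0.18 for Chga and 0.01 for Scg3. Between these arrays Scg3 lacked the difference seen over all arrays, Vgf differed by more than the -0.14 of all arrays, and Chga by about as much as the -0.19 of all arrays. Scg5 differed by -0.03 there, against 0.12 over all arrays. A fit with slide column as a linear covariate returns these same values because of this layout of the columns, so it adds no test. The values by row are also without a test. P61S/R100E had only replicate 1 in row 1, and P61S had only replicate 3 in row 2. Within row 1 and row 2, P61S/R100E minus P61S was -0.37 and -0.24 for Scg3, -0.23 and -0.14 for Scg2, and -0.28 and 0.01 for Vgf. Against wild type, with a single such array in each row, the same rows gave -0.23 and -0.37 for Scg2 and -0.28 and -0.33 for Vgf. Column and protein cannot be told apart for the arrays outside column 2.

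**Figure D3:**
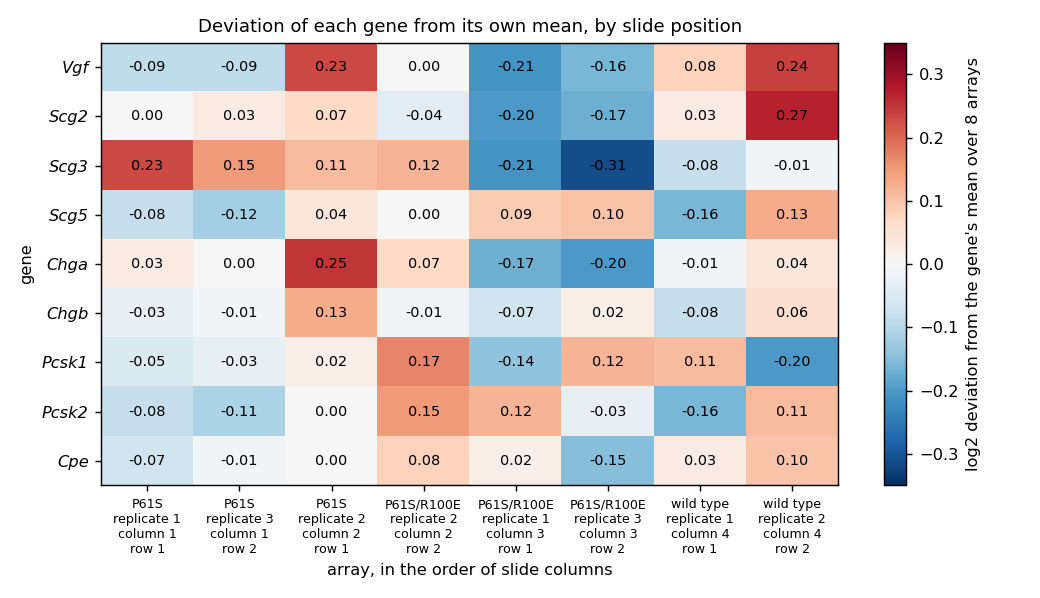
Deviation of each gene (rows) from its own mean over the 8 arrays, in log2 units, with arrays ordered by slide column and row (columns). The P61S/R100E arrays in column 3 are lowest for Vgf, Scg2, Scg3 and Chga, and P61S/R100E replicate 2 in column 2 lies between -0.04 and 0.17 for all 9 genes.

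Within each group, 1 array had the highest value for most genes of the set, which was not tested against the shares of all probes. Some of these leads were small, as for Cpe in the P61S arrays (2.59 against 2.58 and 2.52). P61S replicate 2 had the highest value of its group for 8 of the 9 genes, all but Scg3, where it was highest for 57.3% of all tested probes. P61S/R100E replicate 2 was highest for 7 of the 9, all but Scg5 and Chgb, against 22.5% of probes. Wild type replicate 2 was highest for 8 of the 9, all but Pcsk1, against 64.9%. Mean pan-neuronal marker levels were 2.65, 2.81 and 2.65 in the P61S arrays, 2.77, 2.75 and 2.68 in the P61S/R100E arrays, and 2.67 and 2.86 in the wild type arrays. Replicate 2 thus had the highest neuronal markers in the P61S and wild type groups but not in the P61S/R100E group. In RNA of whole cultures, fewer cells of a type and less RNA per cell cannot be told apart, and the part of neuronal content in the granin differences was not tested. Centred on the pan-neuronal markers, P61S/R100E minus P61S was -0.33 for Scg3 and -0.2 for Scg2, both with adjusted p = 0.999 in limma. Scg3 kept an unadjusted p under 0.05 there. Against wild type 0 of the 9 genes had such a p after this centring, and Scg2 had the smallest (adjusted p = 0.758 in limma).

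Markers of the cell types that such cultures can hold are given first for P61S/R100E against P61S. The 11 tested pan-neuronal markers had a median difference of 0.0 between P61S/R100E and P61S. Of them 1 was higher at an unadjusted p under 0.05 (Tubb3, by 0.35, adjusted p = 0.654 in limma), beside 4.01% of all tested probes. The 12 markers of satellite glia and Schwann cells had 0 at that p and a median of -0.003. All 7 fibroblast markers were higher in P61S/R100E than in P61S, where 43.0% of all probes were, with a median of 0.16 and 0 at that p. All 7 were also lower in P61S than in wild type (median -0.08, 0 at that p), where 60.1% of all probes were. In P61S/R100E 4 of 7 were higher than in wild type (median 0.08, 0 at that p), where 37.6% of all probes were. The summed level of the 7 was 7.26 to 7.53 in P61S/R100E and 7.18 to 7.32 in P61S. In wild type it was 7.33 on both arrays. The 6 tested macrophage markers had a median of 0.01. Their summed level ran from 0.73 to 1.51 in P61S and from 0.74 to 0.96 in P61S/R100E. The 1.51 was on P61S replicate 3, where Cd68 alone stood out at 0.64, against -1.21 and -1.28 on the other P61S arrays. The 5 endothelial and mural markers had a median of -0.18. Granins are also made by adrenal and pituitary cells, of whose markers Dbh and Prl were not detected on any array, and the 4 tested (Th, Pnmt, Gh1 and Pomc) had a median of -0.11 with 0 at that p. Against wild type, the comparison of the Vgf and Scg2 differences, the pan-neuronal median was -0.07 with 7 of 11 below 0, beside 62.4% of all probes. The glial median there was -0.07, the macrophage 0.01, the endothelial and mural -0.03 and the neuroendocrine -0.05. Of these markers 1 was at an unadjusted p under 0.05, where 5.04% of all probes were. It was the leukocyte gene Ptprc, higher by 0.3 (adjusted p = 0.746 in limma), and by 0.14 without wild type replicate 2. The part of these cells in the granin values was not tested.

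Other genes of the secretory route were read from lists of known function. Of 28 processing enzymes outside the set 24 were tested, and their median difference between P61S/R100E and P61S was 0.06. An unadjusted p under 0.05 was reached by 4.01% of all tested probes there. At that p Furin, the convertase of the constitutive pathway, was higher by 0.19 (adjusted p = 0.999 in limma). At that p 2 were lower, the convertase Pcsk4 at -0.35 and the glutaminyl cyclase Qpct at -0.34. Against wild type the median was -0.04. Pam, which amidates peptides, was at 0.26 (0.13 without P61S/R100E replicate 2), short of that p. So were the peptidases Ece2 and Cpm, at -0.64 and -0.44. Both were low in signal, with means of -5.34 and -6.29 in P61S/R100E. Without wild type replicate 2 their differences were -0.09 and -0.15, and without replicate 1 they were -1.19 and -0.72. Between P61S and wild type 0 were at that p, with Qpct at 0.31, Pcsk4 at 0.16, Furin at -0.18 and Ctsd at -0.28. Ctsd was at -0.09 and Qpct at 0.2 without wild type replicate 2, and Ctsd at -0.46 and Pcsk4 at 0.1 without replicate 1. Over all probes 0 of the list passed limma's adjusted threshold in any comparison.

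Of 41 genes for dense-core vesicle assembly and release 36 were tested, with medians of -0.04, -0.1 and -0.07 in the same order. Between P61S/R100E and P61S, 4.01% of all tested probes were at an unadjusted p under 0.05. Of the list 1 was higher at that p, Cyb561, the vesicle membrane cytochrome, by 0.26, and 2 were lower. These were Rab27a, a GTPase that docks secretory vesicles, at -0.29 (adjusted p = 0.963 in limma), and Rab3b, its exocytosis relative, at -0.22. Rab3d was at 0.23, short of that p. Against wild type 4 of the 36 were at that p, where 5.04% of all probes were. Cyb561 was higher by 0.29, and Rab27a (-0.41, adjusted p = 0.647 in limma), the Rab27 effector Sytl4 (-0.87) and the synaptotagmin Syt9 (-0.68, named after its value was seen) were lower. Sytl4 was low in signal, with a mean of -6.93 in P61S/R100E. Without wild type replicate 2, Sytl4 was at -0.48 and Syt9 at -0.16, and without replicate 1 Syt9 was at -1.2. The vesicular monoamine transporter Slc18a2 was at 0.51, short of that p, and at -0.05 without wild type replicate 2 and 1.07 without replicate 1. Between P61S and wild type 0 were at that p, with Cadps at -0.13. There Slc18a2 was at 0.52, Dnajc5 at 0.18 and Sytl4 at -0.47, and without wild type replicate 2 at -0.05, 0.06 and -0.08. None of the 36 passed the adjusted threshold.

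The peptide precursors that granins sort and convertases cut differed by -1.05 to 1.68 between P61S/R100E and P61S, a wider range than that of the 9 genes. Of 28 listed 24 were tested. At an unadjusted p under 0.05 there were 3 higher and 5 lower in P61S/R100E against P61S, where 4.01% of all probes were. Against wild type there were also 3 higher and 5 lower, where 5.04% of all probes were. The medians were -0.06 and -0.03, and the list was chosen with earlier results of these data known. Vip, the precursor of vasoactive intestinal peptide, was higher by 1.68 against P61S (adjusted p = 0.152 in limma) and by 1.72 against wild type (adjusted p = 0.185). Ucn, the urocortin precursor, was higher by 0.58 and 0.69. Nts, the neurotensin precursor, was lower, at -1.05 and -0.84, and so was Nppb, the brain natriuretic peptide precursor, at -0.76 and -0.63. Between P61S and wild type 0 were at that p, the median was 0.09, and Pomc was at 0.19, Nts at 0.21, Tac1 at -0.18 and Pnoc at -0.17. Pomc was at 0.11 and Tac1 at -0.03 without wild type replicate 2, Tac1 at -0.33 without wild type replicate 1, and Nts at 0.07 without P61S replicate 2. These comparisons share the P61S/R100E arrays, and 0 of the 24 genes passed the adjusted threshold in limma.

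**Figure D4:**
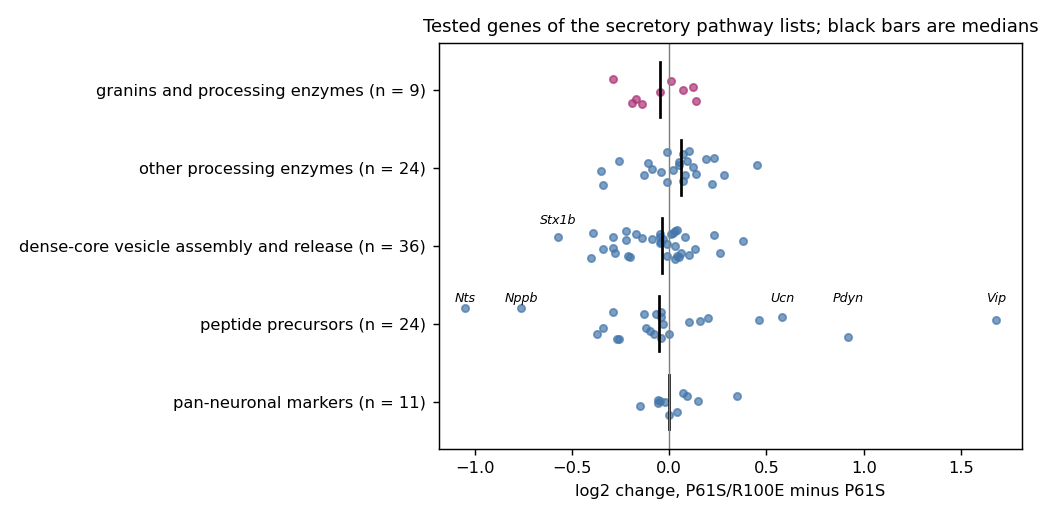
Log2 difference of P61S/R100E minus P61S (horizontal axis) for each tested gene of the set, of 3 lists of the secretory route and of the pan-neuronal markers (rows); black bars are medians. The 9 granin and enzyme genes lie between -0.29 and 0.14, while the precursors reach from -1.05 (Nts) to 1.68 (Vip).

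For Vgf, Scg2 and Pcsk1 the genes of most similar profile were sought among 11448 genes detected on all 8 arrays, by the root mean square difference of profiles centred on their own means. Vgf, with deviations of 0.159 by the same measure, was nearest to Egf (0.04), Samd12 (0.053) and Ctxn1 (0.055). Scg2, with 0.136, was nearest to Cntnap4 (0.031), Tinf2 (0.031) and Tbc1d19 (0.032). Pcsk1, with 0.124, was nearest to Usp9x (0.037), Rnf26 (0.038) and Tmem42 (0.039). The profiles near Scg2 were high on wild type replicate 2 (0.21 to 0.3 above their mean), and those near Pcsk1 were low on it (-0.23 to -0.18) and high on P61S/R100E replicate 2 (0.21 to 0.26). Among 11448 genes over only 8 arrays some profiles lie close by chance, and no relation between these genes was tested.

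Genes with the element found in Vgf and Scg2 had medians within 0.01 of those of genes without it. Among tested genes with a promoter entry, 305 held TGACGTCA and 9593 did not, and this count was chosen after the values were seen. Between P61S/R100E and wild type, 2 of the 305 were higher and 11 lower at an unadjusted p under 0.05 (4.26%, against 4.93% of those without), and the medians were -0.02 and -0.03. Between P61S/R100E and P61S 7 were higher and 3 lower (3.28%, against 4.51%), with medians of -0.02 and -0.01.

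**Figure D5:**
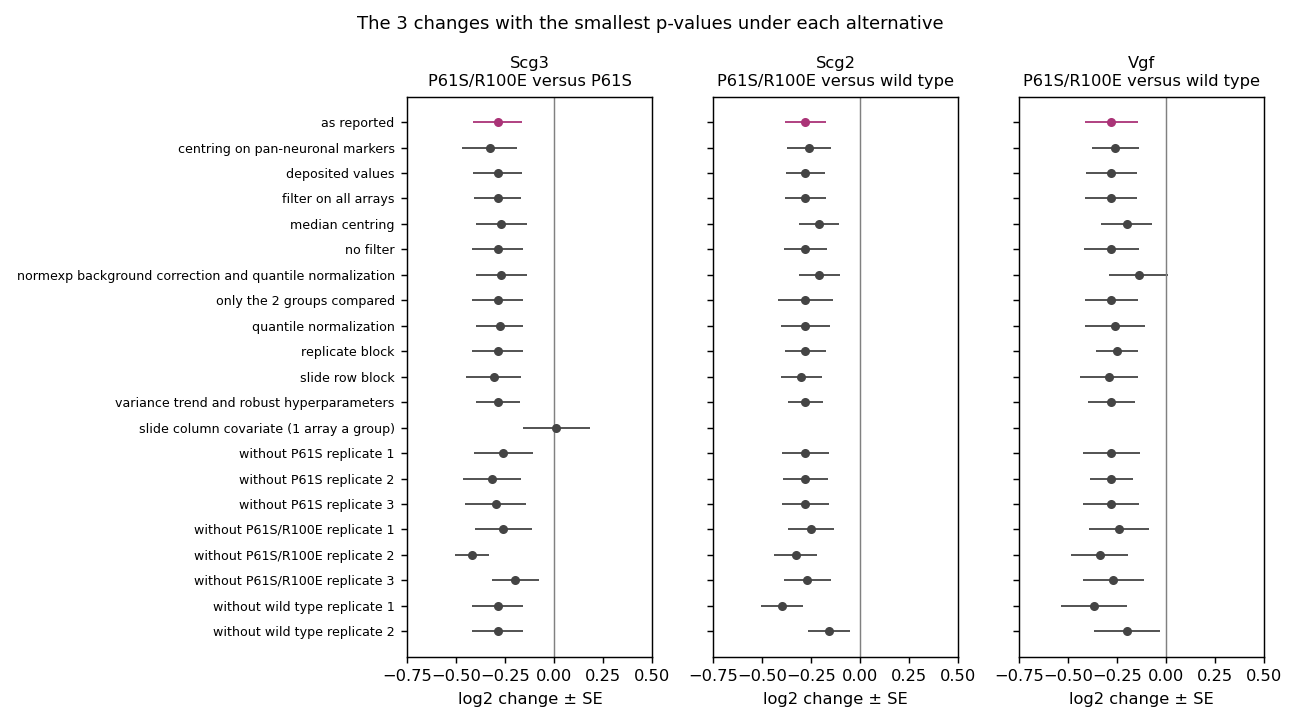
Log2 difference ± SE (horizontal axis) of the 3 gene differences with the smallest p, under each way of processing (rows); the values as reported are in colour. Scg3 runs from -0.42 to 0.01, Scg2 from -0.4 to -0.16 and Vgf from -0.37 to -0.14, and the one value near 0 is Scg3 with slide column as a covariate. That value equals the difference of the 2 arrays in column 2, 1 of each group, and this covariate was not fitted against wild type.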

How the data were processed

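RNA of dorsal root ganglion cultures was hybridised to 8 1-colour arrays, per the labels. The scanner files hold intensity per spot, background-subtracted by Agilent Feature Extraction 10.7.3.1, per the file headers. The authors also deposited log2 values of 22018 probes. RNA of low integrity was discarded, per the labels' protocols.

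Here log2 of the processed intensity was taken minus each array's 75th percentile, replicate spots were averaged, and spots marked as outliers were left out. Symbols came from each probe's RefSeq accession. Tests took the 23585 probes (12148 genes) that every array of some group measured well above background. One limma fit (3.58.1, R 4.3.3) of 3 group means had 5 residual and 1.93 prior degrees of freedom, with Benjamini-Hochberg adjustment over all tested probes and a threshold of 0.05, and was tested on simulated data. The number of arrays limits the precision. Python 3.11.15 with numpy 2.4.6, pandas 2.3.3 and matplotlib 3.10.9 drew the plots and tabulated the values.

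The 9 genes and all lists were chosen with earlier results of these data known. Named genes were the 9, the 2 of each pathway list with the smallest p in each direction, and the 3 nearest profiles of Vgf, Scg2 and Pcsk1. An item that this rule takes is not reported here. The brightest probe stood for a listed gene. Alternatives were normexp (offset 50) with quantile normalization, quantile normalization alone, median centring, the deposited values, 2 filters, a replicate block, slide row and column, 2 groups only, a variance trend, and each array left out. Normexp used the median spot signal, since the files used here give no mean. Centring on pan-neuronal markers, the differences within slide positions, list genes without each array and the count of genes with the element were added after the data were seen. Protein sequences were not used here.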

Additional observations from a re-analysis of the deposited data

How the results depend on the processing

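None of the 9 genes passed the adjusted threshold in limma under any of the 20 alternatives for P61S/R100E against P61S or the 19 for the other comparisons. Of 522 log2 differences of single genes under alternatives, 489 kept their direction and 33 did not; these are given here. Averaging the tested probes of a gene changed nothing, since each has 1.

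Against P61S, P61S/R100E gave Cpe -0.002 with quantile normalization and -0.03 with pan-neuronal centring, and Scg5 -0.03 and Scg3 0.01 with the slide column, which compares 1 array of each group. Against wild type it gave Scg3 0.07 with normexp, Chgb 0.07 with median centring and 0.02 with pan-neuronal centring, and Pcsk2 -0.1 with the deposited values. P61S minus wild type was -0.002 for Chga, -0.06 for Chgb and -0.03 for Pcsk1 with normexp. It was 0.07 with quantile normalization and 0.02 with median or pan-neuronal centring for Pcsk2, and 0.01 and 0.02 with those 2 centrings for Scg5. The cause was not tested.

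Leaving out each array gave, for P61S minus wild type, 0.0 to 0.13 for Chga, -0.02 to 0.12 for Chgb, -0.14 to 0.18 for Pcsk1, -0.17 to 0.1 for Pcsk2, -0.23 to 0.01 for Scg2 and -0.19 to 0.1 for Scg5. The median of the 9 genes ran from -0.13 to 0.1, the latter without wild type replicate 2. For P61S/R100E minus wild type it gave -0.08 to 0.06 for Chgb, -0.06 to 0.26 for Pcsk1, -0.03 to 0.24 for Pcsk2, -0.21 to 0.01 for Scg3 and -0.07 to 0.22 for Scg5, and for P61S/R100E minus P61S -0.04 to 0.07 for Cpe. A lone wild type array was assumed to vary like the other groups.

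Same-numbered arrays of P61S and P61S/R100E had correlated deviations of only 0.05, -0.02 and 0.01. With wild type replicates 1 and 2 the values were 0.1 and 0.17 for P61S, and -0.16 and -0.2 for P61S/R100E. Deviations from the means of so few arrays are bound to each other, so these values cannot settle whether the numbers mark a pairing. With a replicate block, Scg3 differed by -0.29 between P61S/R100E and P61S (adjusted p = 1.0 in limma), Scg2 by -0.28 between P61S/R100E and wild type (adjusted p = 0.903), and Pcsk2 by 0.001 between P61S and wild type.

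Unadjusted p-values under 0.05 were kept by Scg3 against P61S in 5 of 20 alternatives and by Scg2 against wild type in 9 of 19. They were gained by Vgf against wild type in 2 of 19, by Chga against P61S in 1 of 20 (without P61S/R100E replicate 2), and by Pcsk2 in 1 of 19 each for P61S/R100E (quantile normalization) and P61S (deposited values) against wild type. All these values rest on 2 or 3 arrays a group.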
